A study of Homo sapiens with 6 samples.

Results

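MGP, LUM, LOX, HMCN1, FBLN5 and OLFML2A encode secreted proteins of the extracellular matrix, and they are 6 of the 14884 genes measured here. They were picked by symbol, with the brightest probe of each symbol, after their response to iron was known. The changes given for them are therefore descriptions and carry no p-value. The cells were ARPE-19, a spontaneously arising human cell line from the retinal pigment epithelium, which had been held for 4 weeks in 1% serum to differentiate and was then moved to medium free of serum. On 3 arrays the cells had received 250 µM FAC (in iron research, ferric ammonium citrate) for 2 days, and on the other 3 they had received vehicle for the same time. The groups carried no genetic change, and all 6 arrays were of this single line grown alone, without the vessels and Bruch's membrane that lie under it in the eye.

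Retinal pigment epithelium rests on Bruch's membrane, a layered matrix of collagens with an elastic layer in the middle, and secretes part of it. Matrix of this kind is built by scaffold proteins, by small proteoglycans that set the width and spacing of collagen fibrils, by enzymes that cross-link collagen and elastin, and by proteins that keep mineral from forming in it. LUM (lumican) is one of the small leucine-rich proteoglycans. LOX (lysyl oxidase) is the copper enzyme that starts the cross-links, FBLN5 (fibulin-5) brings elastin and cross-linking enzymes to microfibrils, and HMCN1 (hemicentin-1) is a very long member of the fibulin family. MGP (matrix Gla protein) inhibits calcification once its glutamates are carboxylated with vitamin K and also binds bone morphogenetic proteins, and OLFML2A belongs to the secreted proteins with an olfactomedin domain.

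Of the 6 genes, 3 have an entry in the RefSeq promoter table (GRCh38.p14), namely LOX, FBLN5 and OLFML2A. LOX was lower with FAC while FBLN5 and OLFML2A were higher, and a link of sequence to direction was not tested. The 250 bases before the outermost annotated start of each of the 3 are shown. They lie at chr5:122078260-122078509 on the minus strand for LOX, at chr14:91947695-91947944 on the minus strand for FBLN5 and at chr9:124776883-124777132 on the plus strand for OLFML2A. Each reads 5′ to 3′ along its gene, and capitals mark 2 motifs on either strand. These are ACGTG, a form of the core that hypoxia-inducible factors bind, and GGGCGG, the GC box bound by Sp1-type factors. The GCGTG form of that core was not searched, and it occurs in lower case in the FBLN5 and OLFML2A stretches.
LOX: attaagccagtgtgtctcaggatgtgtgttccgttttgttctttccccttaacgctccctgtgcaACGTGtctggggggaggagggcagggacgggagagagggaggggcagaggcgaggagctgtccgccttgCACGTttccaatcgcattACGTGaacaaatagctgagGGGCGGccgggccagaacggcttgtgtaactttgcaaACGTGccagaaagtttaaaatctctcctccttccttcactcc
FBLN5: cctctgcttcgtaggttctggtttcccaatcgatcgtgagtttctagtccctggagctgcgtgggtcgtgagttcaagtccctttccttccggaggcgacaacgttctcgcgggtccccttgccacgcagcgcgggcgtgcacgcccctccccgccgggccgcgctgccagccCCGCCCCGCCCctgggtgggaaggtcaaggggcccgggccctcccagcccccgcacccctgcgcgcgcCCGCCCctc
OLFML2A: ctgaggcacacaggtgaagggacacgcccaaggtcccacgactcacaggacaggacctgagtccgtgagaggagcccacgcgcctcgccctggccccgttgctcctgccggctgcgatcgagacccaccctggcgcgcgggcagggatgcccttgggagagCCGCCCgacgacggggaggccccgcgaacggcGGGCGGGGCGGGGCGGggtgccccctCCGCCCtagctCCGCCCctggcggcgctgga
The LOX stretch held 4 matches to ACGTG and 1 to GGGCGG, with 55.2% G and C. FBLN5 held 3 matches to GGGCGG and OLFML2A held 6, at 71.6% and 75.2% G and C, and neither had an ACGTG. Among 35116 RefSeq promoter stretches of the same length, 18.5% held at least 1 ACGTG and 42.6% at least 1 GGGCGG. At least 4 matches to ACGTG were found in 0.669% of them, at least 3 to GGGCGG in 13.9% and at least 6 in 2.22%. The median G and C of these stretches was 58.0%, and the shares were not matched for it. TGANTCA (AP-1), TGACNNNGC (the core of the antioxidant response element) and TATAAA were searched on both strands too, and these letters were in none of the 3 windows (they were in 6.57%, 10.9% and 10.7% of the stretches). No match shared a base with a match to another motif, but some GGGCGG matches in FBLN5 and OLFML2A overlapped each other. A match is a run of letters and not a shown binding site.

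The 6 arrays were alike, with medians of 6.03 to 6.09 and correlations of 0.991 to 0.995 (Pearson's r across probes) for each pair. Levels below are log2 intensities, and means carry their SD (n = 3 in each group). A change is the FAC mean minus the untreated mean on the log2 scale, with its SE. Across all 14884 genes 3.73% passed an adjusted p of 0.05 in limma, 1.88% higher and 1.85% lower with FAC. All 6 genes passed, 2 higher and 4 lower, but they were picked with this known, so the count says nothing further about them. The 3 FAC values lay wholly above or below the 3 untreated values for each of the 6, as they did for 23.4% of all genes (10.4% with FAC above and 13% with FAC below). A change of a gene's RNA in the culture cannot be told apart from a change in the number of cells that make it. Among markers of pigment epithelium, 14 of 16 were measured and none passed, with changes from -0.20 to 0.32 and a median of -0.03. FAC lay wholly above untreated for RGR (0.32 ± 0.09, adjusted p = 0.117), RLBP1 (0.31 ± 0.08, adjusted p = 0.0843) and MERTK (0.18 ± 0.09, adjusted p = 0.343), and wholly below for MITF, a transcription factor of this lineage (-0.15 ± 0.06, adjusted p = 0.215). Untreated replicate 2 was low for TYR (6.88, against 7.97 and 7.86 on the other untreated arrays) and TYRP1 (9.48, against 10.45 and 10.28). The untreated SDs of these genes were 0.60 and 0.52. The part of these differences in the results below was not tested. OTX2, another such factor, averaged 11.04 ± 0.06 in FAC-treated cells and 11.10 ± 0.10 in untreated cells. RPE65, the isomerase that defines the mature tissue, was at 5.69 ± 0.08 with FAC and 5.67 ± 0.15 without, and with no detection calls its presence cannot be judged.

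**Figure D1:**
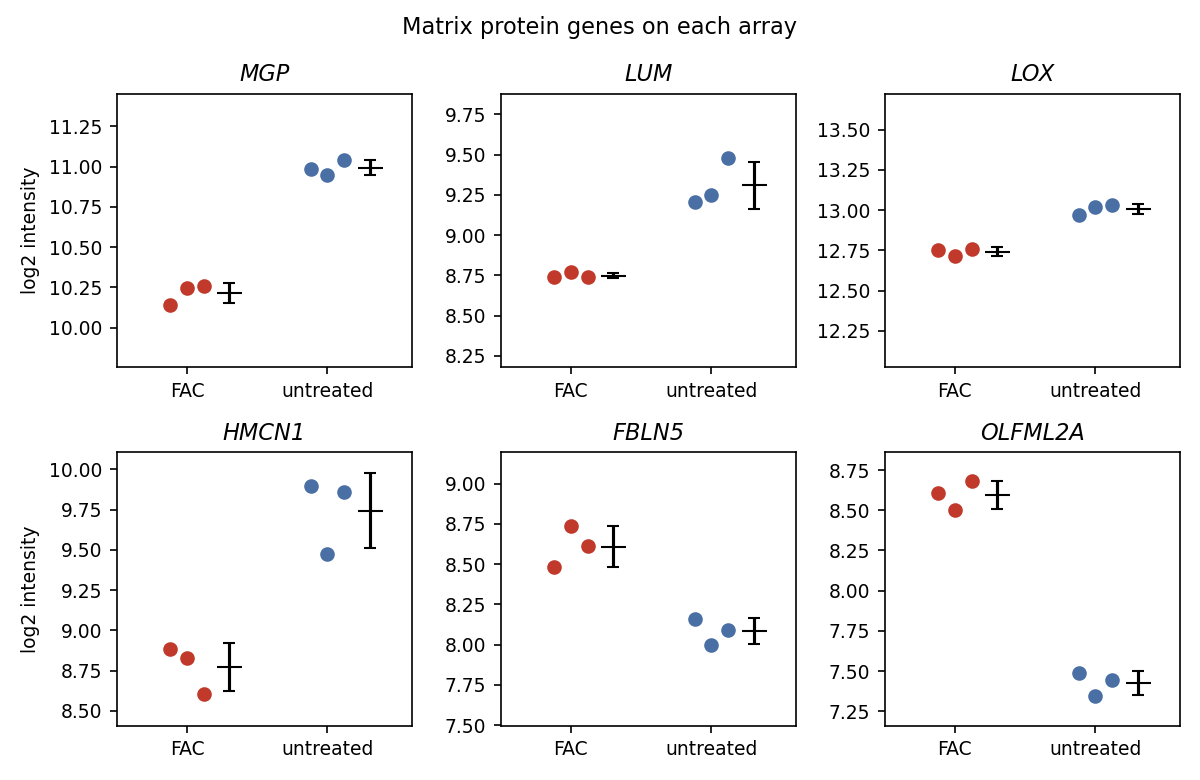
Log2 intensity of each of the 6 genes on every array, with FAC-treated cultures in red and untreated ones in blue. Bars show the mean and SD of 3 arrays, and each panel spans the same log2 height. In no panel do the groups overlap, and the separation is widest for OLFML2A and narrowest for LOX.

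MGP, the calcification inhibitor, was lower with FAC. Its values were 10.14, 10.25 and 10.26 on the FAC arrays, against 10.99, 10.95 and 11.04 on the untreated arrays. The highest FAC value lay 0.69 below the lowest untreated value, while the arrays of a group spread over no more than 0.11. The means were 10.22 ± 0.06 with FAC and 10.99 ± 0.05 without, a change of -0.78 ± 0.06, or 1.71-fold lower. By size it was number 17 among all measured decreases.

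LUM, the proteoglycan, had 8.74, 8.77 and 8.74 in FAC-treated cells and 9.21, 9.25 and 9.48 in untreated cells. The FAC arrays were nearly identical, with a spread of 0.03. The 3 untreated arrays spread over 0.27, with replicate 3 above the other untreated arrays. The change was -0.56 ± 0.08, or 1.48-fold lower, and it was -0.48 without untreated replicate 3. LOX, the cross-linking enzyme, measured 12.75, 12.71 and 12.76 with FAC against 12.97, 13.02 and 13.03 without. This was the smallest change of the 6, -0.26 ± 0.05 or 1.20-fold lower, between close replicates, with spreads of 0.05 among FAC arrays and 0.06 among untreated arrays. Decreases at least as large as that of LOX were measured for 495 genes, LOX among them. Its probe is close to the top of the scale, whose maximum is 14.22, where arrays tend to compress differences.

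HMCN1 had the largest decrease of the 6. Its values were 8.89, 8.83 and 8.61 on the FAC arrays, against 9.90, 9.47 and 9.86 on the untreated arrays. Untreated replicate 2 was low and FAC replicate 3 was low, which made HMCN1 the most variable of these genes, with SDs of 0.15 with FAC and 0.23 without. The lowest untreated value still lay 0.59 above the highest FAC value. The change was -0.97 ± 0.12, or 1.96-fold lower, and ranged from -1.11 to -0.89 when each array was left out in turn. Only 3 genes had larger measured decreases.

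FBLN5 and OLFML2A were higher with FAC. FBLN5 measured 8.48, 8.73 and 8.61 in FAC-treated cells and 8.16, 7.996 and 8.09 in untreated cells. The gap between the groups was 0.32, against a spread of 0.25 among the FAC arrays and 0.16 among the untreated ones, and the change was 0.53 ± 0.08, or 1.44-fold. OLFML2A measured 8.61, 8.50 and 8.68 with FAC against 7.49, 7.35 and 7.45 without. Here the groups were 1.01 apart at the closest, and the change was 1.17 ± 0.07, or 2.25-fold, number 4 by size among all measured increases. FBLN5 was number 86 in that order. The direction of all 6 genes was the same in each of the 14 other ways of processing tried. Most of these could not have reversed a direction between groups that did not overlap.

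**Figure D2:**
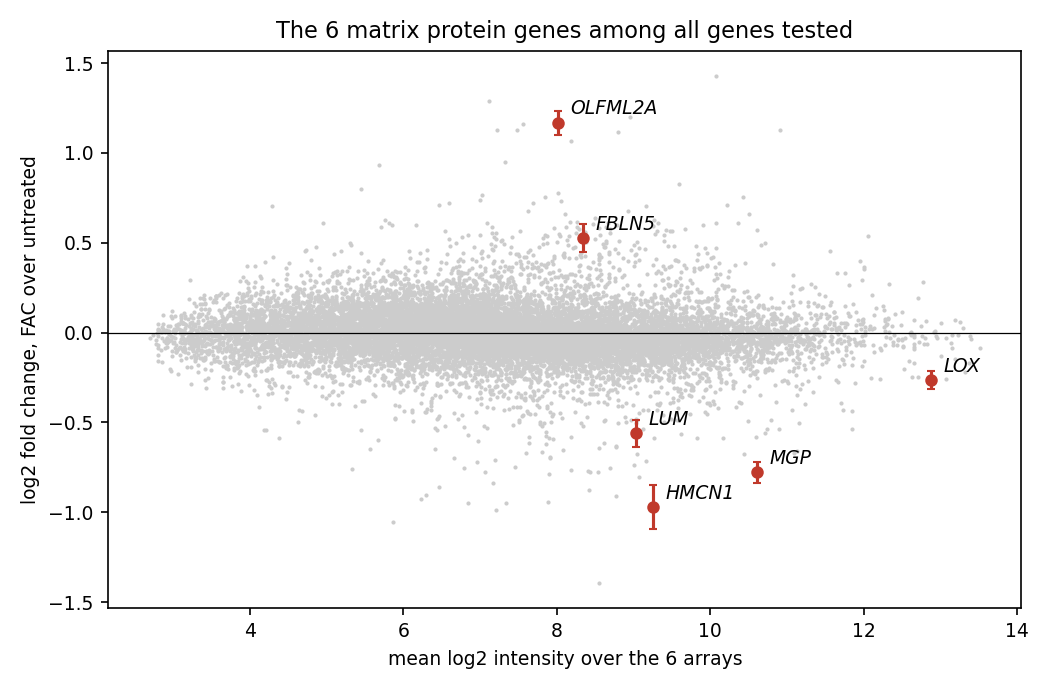
Log2 fold change of FAC over untreated against the mean log2 intensity over the 6 arrays for all 14884 genes (grey), with the 6 matrix genes in red and bars of 1 SE. OLFML2A at 1.17 and HMCN1 at -0.97 lie at the edges of the cloud, and LOX at -0.26 lies at the bright end of the scale.

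The arrays did not rank these genes alike. Untreated replicate 2 was the lowest untreated array for MGP, HMCN1, FBLN5 and OLFML2A, so for genes of either direction. For LUM and LOX the lowest untreated array was replicate 1. FAC replicate 1 was the lowest FAC array for MGP, LUM and FBLN5, and FAC replicate 3 for HMCN1. Likeness between genes was measured as the root mean square difference over the 6 arrays between values centred on each gene's own mean, a description of profiles that include the contrast by which the genes were picked. MGP and LUM were the closest pair of the 6, at 0.13, and HMCN1 and OLFML2A the farthest apart, at 1.08.

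Over all named genes, the profile most like that of MGP was MFAP3L (difference 0.04, change -0.78 ± 0.06), followed by LMO4 and BMAL1. LUM was closest to LXN (0.04, change -0.50 ± 0.06), an inhibitor of carboxypeptidases, then to PGK1 and ALOX5AP. LOX was closest to BCL10 (0.02, change -0.27 ± 0.05), then to the lysosomal protease gene LGMN and to GPI, a glycolytic enzyme. HMCN1 had no equally close match, with SMAD6, an inhibitor of bone morphogenetic protein signalling, at 0.10, followed by LRRC32 and ANKRD37. FBLN5 was closest to ACSL1 (0.05, change 0.51 ± 0.07), then to PPL and ALOX5, and OLFML2A to the ion channel gene ASIC1 (0.04, change 1.13 ± 0.06), then to SPNS2 and SBF2-AS1.

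The relatives of these genes were listed by family, and not by how each one moved, and were tested in the same fit. The lists were nonetheless drawn up with earlier results of these data known, that of LTBP2 among them, so their p-values are not independent of that knowledge. Of 77 genes in 6 family lists, 66 were measured, and 3 rose and 5 fell with FAC (12.1% passing, beside 3.73% of all genes). The proteoglycans PODN and PRELP and the pyrophosphate-making enzyme ENPP1 rose, while the proteoglycan EPYC, the metalloprotease TLL1, the oxidase LOXL2, LTBP2 and OLFM2 fell. Their median change was -0.04, beside -0.0041 over all genes. In 23 of the 66 the groups did not overlap, 6 with FAC above and 17 with FAC below, or 34.8% beside 23.4% of all genes. EPYC, PODN, PRELP and LTBP2 passed in the full fit and in all 14 other ways of processing.

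Among the small leucine-rich proteoglycans, the family of LUM, 2 of 15 measured genes passed as higher with FAC and 1 as lower. EPYC (epiphycan, known from cartilage) had 6.58, 6.61 and 6.59 with FAC against 7.34, 7.18 and 7.43 without, a change of -0.72 ± 0.07 (adjusted p = 0.00306). PODN (podocan) had 7.34, 7.36 and 7.47 with FAC against 6.84, 6.80 and 6.71 without, and rose by 0.61 ± 0.06 (adjusted p = 0.00385). PRELP, which anchors basement membranes to collagen, had 8.79, 8.95 and 8.80 with FAC against 8.21, 8.35 and 8.22 without, and rose by 0.58 ± 0.07 (adjusted p = 0.00669). In none of these did the groups overlap. The family thus held genes that were lower with FAC, as LUM was, and genes that were higher, and its median was 0.06.

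**Figure D3:**
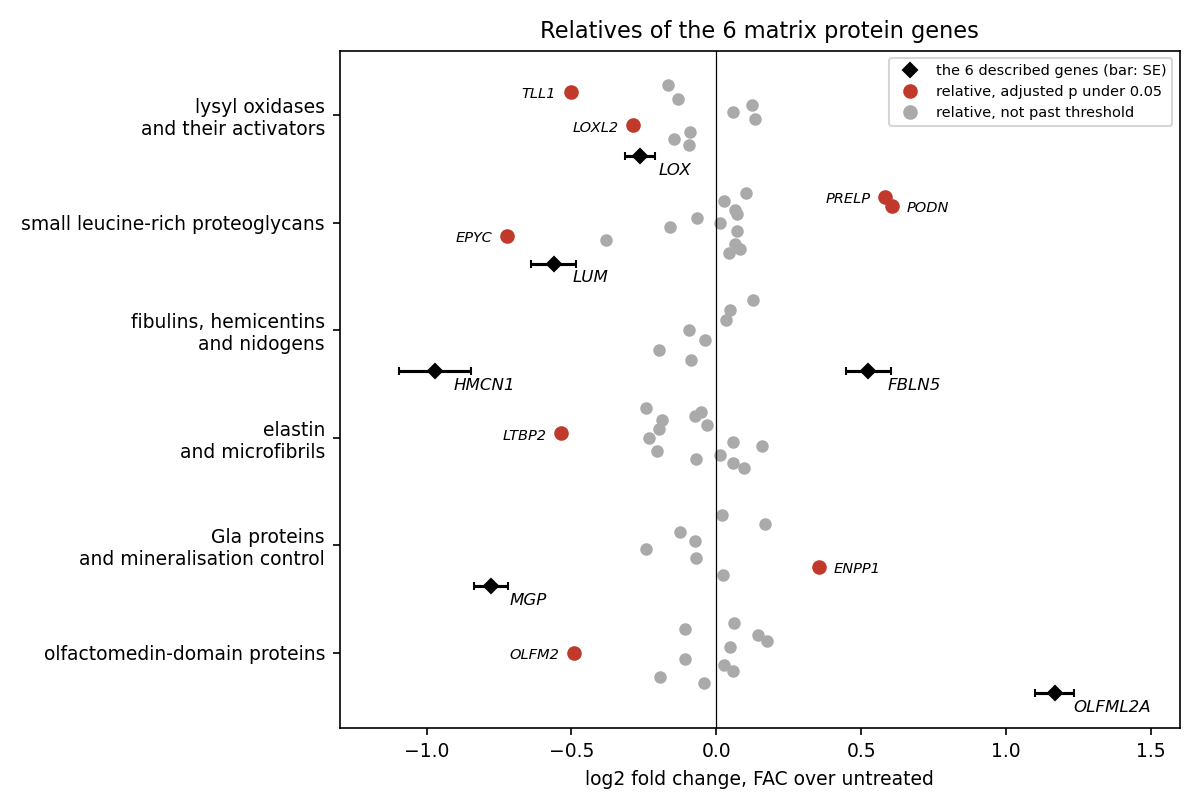
Log2 fold change of FAC over untreated for the measured relatives (circles, red where the adjusted p was under 0.05) in 6 family lists, with the 6 described genes as black diamonds (bars, 1 SE) below the list each belongs to. Most relatives lie close to 0, with PODN and PRELP on the right and EPYC on the left in the family of LUM.

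On chromosome 12 the RefSeq gene table places EPYC, KERA, LUM and DCN next to each other in this order, with no other protein-coding gene between them. All 4 are small leucine-rich proteoglycans. DCN (decorin), the neighbour of LUM on one side, had 5.47, 5.25 and 5.17 with FAC against 5.67, 5.61 and 5.76 without. Its groups did not overlap, yet the change of -0.38 ± 0.09 missed the threshold (adjusted p = 0.0539, with a 95% interval of -0.58 to -0.19). DCN passed in 3 of the 13 other ways of processing that kept it. The 3 were without FAC replicate 1 (-0.47, adjusted p = 0.0438), with median-centred arrays (0.0492) and with an intensity trend in the variance prior (0.0392). In the others its adjusted p reached 0.179, and the filter on dim genes left DCN out. KERA (keratocan), the neighbour on the other side, averaged 3.86 ± 0.04 with FAC and 4.02 ± 0.21 without, with overlapping groups (-0.16 ± 0.10, adjusted p = 0.470). That is near the floor of the table, whose minimum is 2.41, so a change of KERA could be missed. Of this row of genes EPYC thus passed the test, LUM had been picked for its decrease, and DCN and KERA did not pass.

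**Figure D4:**
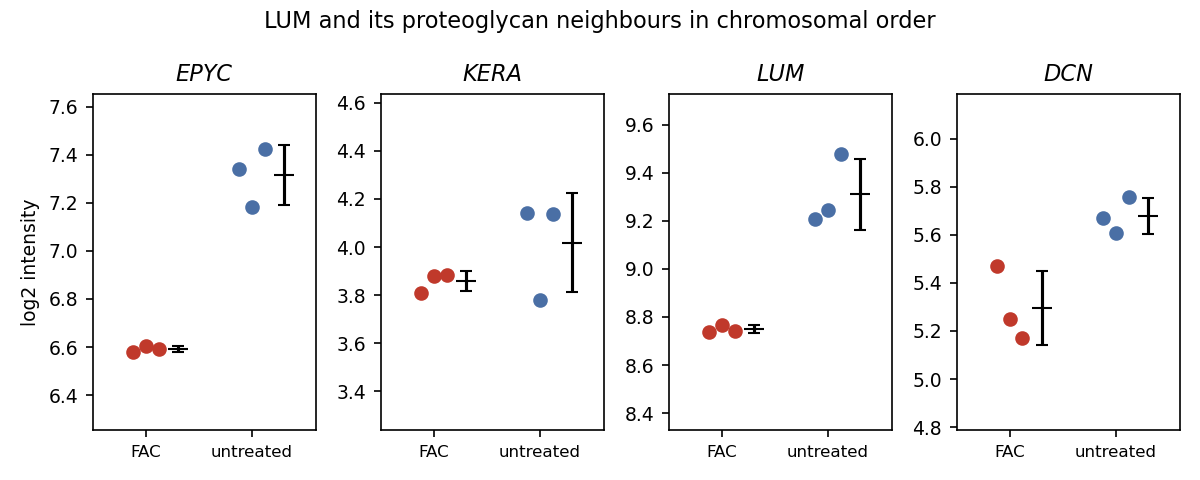
Log2 intensity on each array of LUM and its proteoglycan neighbours in the order of the RefSeq gene table, with FAC in red, untreated in blue and bars for mean and SD (n = 3). FAC lies wholly below untreated for EPYC, LUM and DCN, while the groups overlap for KERA.

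The nearest measured neighbours of the other 5 genes did not pass either. For all 6 genes together, 13 nearest or overlapping genes with a named probe were tested and limma called 0, with 2 at an unadjusted p under 0.05, DCN and LOC100129034 (-0.13 ± 0.05, adjusted p = 0.273). LOC100129034 is the nearest gene with a named probe on one side of OLFML2A, though not its immediate neighbour. SRFBP1 overlaps LOX in the gene table and averaged 9.55 ± 0.04 with FAC and 9.55 ± 0.05 without (0.00026 ± 0.05, adjusted p = 0.998). TRIP11, the nearest measured gene on one side of FBLN5, changed by -0.08 ± 0.07 (95% interval -0.25 to 0.09), and ART4 and ERP27, the nearest measured genes on either side of MGP, by -0.15 ± 0.07 and 0.07 ± 0.10.

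Beside LOX, 2 of 10 measured lysyl oxidases and activators passed as lower with FAC and none as higher, with a median of -0.11. LOXL2, a sister enzyme, measured 11.06, 11.02 and 11.06 with FAC against 11.25, 11.34 and 11.41 without. Its change, -0.29 ± 0.06 (adjusted p = 0.0396), was of the size of that of LOX. TLL1, a tolloid metalloprotease of the kind that trims procollagen and the LOX precursor, measured 8.01, 8.10 and 8.08 with FAC against 8.61, 8.37 and 8.72 without and fell by 0.50 on the log2 scale (adjusted p = 0.0262). The groups were separate in both. With 1 array fewer the changes stayed near these sizes (-0.33 to -0.25 for LOXL2 and -0.60 to -0.43 for TLL1), but LOXL2 passed in none of the 6 fits that left out 1 array (adjusted p from 0.0569 to 0.134) and TLL1 only in the one without untreated replicate 2 (0.00943, and 0.0698 to 0.117 without each of the others). Neither LOXL2 nor TLL1 passed with every probe tested (adjusted p of 0.142 and 0.0996) or with the replicate block (0.107 and 0.0623). FN1, LOXL1, LOXL3, LOXL4, BMP1, PCOLCE, PCOLCE2 and TLL2 did not pass.

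None of the 7 measured fibulins, hemicentins and nidogens passed in limma, with 1 at an unadjusted p under 0.05, and HMCN2, the closest relative of HMCN1, was not analysed here. The smallest p was that of EFEMP2 (fibulin-4), which brings LOX to elastic fibres. It measured 9.95, 10.06 and 10.005 with FAC against 10.21, 10.18 and 10.23 without. The groups did not overlap, and the change was -0.20 ± 0.05 (95% interval -0.32 to -0.07, adjusted p = 0.0999). EFEMP2 passed in 2 of the 14 other ways of processing. These left out the dimmest 33.3% of genes (0.0461) or let the variance prior follow intensity (0.0137). EFEMP2 passed in none of the 6 fits that left out 1 array (adjusted p from 0.137 to 0.285). NID2, a basement membrane linker, came next at 0.13 ± 0.06 (95% interval -0.01 to 0.26, adjusted p = 0.320).

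Of 15 measured genes of elastin and its microfibrils, the partners of FBLN5, LTBP2 fell and the other 14 did not pass, with a median of -0.07. An unadjusted p under 0.05 in limma was found for 7 of the 15, and for 2560 of all 14884 genes. The groups did not overlap in 7 of the 15, beside 23.4% of all genes. FAC lay wholly below untreated for FBN1, LTBP1, LTBP2, LTBP3, MFAP2 and MFAP5 and wholly above for FBN2. LTBP2 measured 11.50, 11.57 and 11.67 with FAC against 12.06, 12.10 and 12.19 without (-0.53 ± 0.06, adjusted p = 0.00714). A second probe of LTBP2 gave -0.34. ELN, the gene of elastin itself, averaged 0.10 ± 0.10 higher with FAC (95% interval -0.13 to 0.32), and FBN1, the main microfibril protein, 0.20 lower (-0.20 ± 0.05, adjusted p = 0.0777). These were picked out as the main components after their values were seen.

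Among 8 measured Gla proteins and genes of mineralisation control, the group of MGP, ENPP1 passed as higher with FAC and none as lower. The median was -0.02. ENPP1, whose product pyrophosphate blocks crystal growth, measured 8.80, 8.70 and 8.58 with FAC against 8.25, 8.43 and 8.32 without (0.36 ± 0.08, adjusted p = 0.0465). It did not pass when arrays were centred on their medians (0.0594) or when any 1 array was left out (from 0.0509 to 0.167). ENPP1 also missed with every probe tested (0.151) and with the replicate block (0.105). GGCX, the carboxylase that activates MGP, measured 9.16, 9.19 and 9.14 with FAC against 9.34, 9.46 and 9.42 without and missed the threshold (-0.24 ± 0.06, adjusted p = 0.0568). It is named here after its values were seen.

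No measured relative of OLFML2A passed as higher with FAC. The changes of the family ran from -0.49 to 0.17, with a median of 0.03. Of 11 other genes with an olfactomedin domain, OLFM2 fell, with 8.23, 8.32 and 8.55 with FAC against 8.92, 8.79 and 8.86 without (-0.49 ± 0.09, adjusted p = 0.0264). Its call was lost without FAC replicate 1 (0.101), FAC replicate 2 (0.0839), untreated replicate 1 (0.0855) or untreated replicate 3 (0.0976). It was also lost with every probe tested (0.0998) and with the replicate block (0.0620). OLFML2B, the nearest relative of OLFML2A, averaged 6.90 ± 0.15 with FAC and 7.01 ± 0.20 without. Its change was -0.11 ± 0.11 (95% interval -0.37 to 0.16).

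Markers of other cell types were read beside these genes, since fibroblasts also make much of this matrix. Of 13 fibroblast and mesenchyme markers 6 had a probe named here. PDGFRA, PDGFRB, COL1A1, COL1A2, COL3A1, ACTA2 and FAP had none and could not be read. None of the 6 passed, but the sum of their log2 levels differed by group. It lay between 48.2 and 48.7 on the FAC arrays and between 49.0 and 49.2 on the untreated arrays. TAGLN, a gene of contractile cells, had the largest difference among the 6 (-0.26 ± 0.07, adjusted p = 0.113), and VIM the smallest (0.0014 ± 0.05). Sums over 7 measured markers of neurons, glia and photoreceptors were 46.2 to 46.8 with FAC and 45.1 to 46.0 without, none passing. The groups did not overlap in 5 of these 7, beside 23.4% of all genes. FAC lay above for AQP4, GFAP, SAG and SOX10 and below for SYT1 (-0.21 ± 0.07). Over 5 measured markers of endothelium and blood the sums were 36.9 to 37.4 with FAC and 37.2 to 38.3 without, and CSF1R fell (-0.37 ± 0.07, adjusted p = 0.0365). Intensities have no true zero, so no marker can be called absent, and the part of these differences in the results above was not tested.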

How the data were processed

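Each RNA sample, from 6 ARPE-19 cultures, was hybridised to 1 array. The authors deposited 1 table of 53617 probes with log2 values from 2.41 to 14.22. The submitters' processing notes list Partek 6.6 and RMA, without their role, and the unit was read from the values. Background correction, detection calls and scan dates are not given in the sources used here. The number of arrays limits the precision, and SEs of changes had a median of 0.07. Through the platform annotation 16098 probes had 1 symbol each, none had several, and 37519 were unnamed here. The named probes gave 14884 genes, taking the probe with the highest mean where a gene had several (779 genes); each of the 6 matrix genes had 1 probe.

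FAC was compared with untreated in limma 3.58.1 (R 4.3.3, lmFit and eBayes, two-sided). P-values were adjusted by Benjamini-Hochberg across the 14884 genes and called at 0.05. No filter on low values was applied. The test was checked on simulated data. The matrix genes, the family lists and the tests were chosen with earlier results of these data known. Named relatives are up to 4 passing genes per list by size, or the 2 with the smallest p, with the nearest measured neighbours and the 3 most alike profiles per gene; exceptions are marked. Profiles of uncharacterised loci and small RNAs were left out. Gene order came from RefSeq (GRCh38.p14), used for names and neighbours only, and promoter sequences from the same build. Alternatives were a filter on dim genes, quantile normalization, median centring, a variance prior with trend, array weights, averaged probes, every probe tested, a replicate block and leaving out each array.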

Additional observations from a re-analysis of the deposited data

How the results depend on the processing

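The direction of all 6 matrix genes held in each of the 14 alternatives, though most could not have reversed it. As the groups did not overlap, leaving out 1 array or weighting arrays cannot change the direction. The filter on dim genes, the variance prior, averaged probes, every probe tested and the replicate block left these changes as they were. No change moved by as much as the gene's SD between replicates pooled over both groups. LUM, whose FAC arrays had an SD of only 0.02, moved from -0.56 to -0.48 without untreated replicate 3. Leaving out 1 array gave -0.80 to -0.74 for MGP, -0.61 to -0.48 for LUM, -0.28 to -0.25 for LOX, -1.11 to -0.89 for HMCN1, 0.46 to 0.59 for FBLN5 and 1.13 to 1.21 for OLFML2A. The counts were less stable. The 555 of 14884 genes became 840 of 9923 without the dimmest 33.3% of genes and 1026 of 14884 with a variance prior that follows intensity, and testing every probe called 254 of 53617 probes, named or not. The 8 of 66 related matrix genes became 13 of 47, 15 of 66 and 4 of 66 under the same settings, and the 0 neighbouring genes became 1, DCN, with that variance prior and 1, again DCN, with arrays centred on their medians. Median centring split the 8 related genes into 2 higher and 6 lower, against 3 and 5. The 13 were 3 higher and 10 lower, the 15 were 3 and 12, and the 4 were 2 and 2. Of all genes or probes called in those settings, 47.4%, 45% and 40.9% were higher. Leaving out 1 array gave 147 to 447 genes among all, 4 to 6 related genes and 0 to 1 neighbouring genes. With the replicate number as a block, 184 genes, 4 related genes and 0 neighbouring genes passed. Same-numbered arrays did not deviate together (correlations of 0.02, 0.01 and -0.10 over all probes), so the numbers do not show a pairing. Testing every probe adjusts over more features, and leaving out an array or adding the block leaves fewer degrees of freedom; the cause of the other moves was not tested. With 3 arrays per group and no detection calls, small changes of dim genes such as KERA could be missed.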
